A study of Mus musculus with 9 samples.

Results

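Plexins and neuropilins are the cell-surface receptors of the semaphorins, a family of guidance signals. The 10 genes described here were chosen by name: the A-type plexins Plxna1, Plxna2, Plxna3 and Plxna4, the B-type plexins Plxnb1 and Plxnb2, the single C-type and D-type plexins Plxnc1 and Plxnd1, and the neuropilins Nrp1 and Nrp2. They account for 17 of the 30978 RefSeq transcripts in the tables and for 10 of 23494 genes, and each gene was represented by its transcript with the highest mean over all libraries. The cortices came from mouse embryos at E13.5 (mixed C57BL/6, C57BL/6J and CBA background, labelled as neuronal stem cells plus neurons): 3 control, 3 heterozygous Sfpq knockout and 3 homozygous Sfpq knockout embryos. Sfpq is a nuclear RNA-binding protein, and the series asks how its loss affects long neuronal genes. Libraries were made from total RNA depleted of ribosomal RNA. What the 3 groups share, as far as the labels say, is the age, the tissue and the strain background. The Sfpq allele, the driver of its deletion and the cells that lost it were not given in the sources used here.

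A plexin spans the membrane and carries a cytoplasmic domain that switches off small GTPases of the Ras and Rap families once a semaphorin binds, which lets the growth cone turn or collapse. Most secreted class 3 semaphorins bind a neuropilin first, and the neuropilin, which has only a short cytoplasmic tail, signals through an A-type plexin. Neuropilins also bind vascular growth factors. In the embryonic cortex these receptors are known for steering axons, positioning migrating neurons and shaping the vessels that grow into the wall.

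Levels are given in RPKM, the reads of a transcript scaled to its length and to the depth of the library, so they can be compared between genes. A change is the difference between group means of log2(RPKM + 0.5), a scale that makes the change of weakly expressed genes look smaller, and a gene was called changed at a Benjamini-Hochberg adjusted p below 0.05 from limma over the 12291 genes whose mean reached 0.5 RPKM. All 10 receptor genes passed that filter. The ninth plexin gene of the mouse, Plxnb3, lay between 0.00188 and 0.0105 RPKM in the 9 libraries and was not tested.

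Sfpq itself was at 184, 202 and 218 RPKM in control, at 185, 163 and 169 RPKM in heterozygous and at 26.1, 28.6 and 27.6 RPKM in homozygous libraries. These are values of its non-coding RefSeq transcript, which had the highest mean. The coding transcript was at 168, 187 and 201 RPKM in control, 168, 149 and 151 RPKM in heterozygous and 23.75, 25.7 and 25.4 RPKM in homozygous libraries. The homozygous mean was 13.6% of the control mean (log2 change -2.85 ± 0.07 SE, limma adjusted p = 1.30e-09). The heterozygous mean was 85.6% of it and did not pass (log2 change -0.22 ± 0.07 SE, limma adjusted p = 0.709). The files hold no counts; judged from the steps between the lowest values, depth was about 169.5 to 205.5 M (mega) reads in a library. By their Xist and Y-linked RNA, the embryos were 2 females and 1 male in control, 3 males in heterozygous, and 1 female and 2 males in homozygous. Libraries also differed in their general level: control library 3 was the highest control library for 10 of 10 receptor genes, and homozygous library 3 the highest homozygous library for 9 of 10. Heterozygous library 3 was the highest of its group for 7. Library 1 was the lowest for 8 members in control, 6 in heterozygous and 9 in homozygous cortex. Control library 3 was the only control male and homozygous library 1 the only homozygous female. For these libraries level and sex cannot be told apart, and leaving either out also leaves 1 sex in its group. The median log2(RPKM + 0.5) over all genes tested was 2.93 in control library 3, against 2.79 and 2.84 in the other control libraries. Results that depend on these libraries are given with and without them.

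In control cortex the receptors were expressed over a range from 2.45 ± 0.192 RPKM for Plxna3 to 22.8 ± 3.73 RPKM for Plxnb2 (SD, n = 3). Plxnb2, a receptor of class 4 semaphorins known from neural progenitors, stood above all others, with no overlap with the next gene. Nrp1, at 12.2 ± 1.83 RPKM, and Plxna2, at 12.0 ± 2.05 RPKM, overlapped in control and ranked next. Nrp2 followed at 9.46 ± 0.756 RPKM. Plxnb1, at 5.02 ± 0.534 RPKM, and Plxnc1, at 4.63 ± 0.110 RPKM, overlapped as well. The libraries of Plxna4, Plxnd1 and Plxna1, at 3.63 ± 0.787, 3.34 ± 0.708 and 3.26 ± 0.294 RPKM, overlapped from each gene to the next, and Plxna3 had the lowest mean and overlapped Plxnd1 alone. By mean over the 9 libraries, Plxnb2 was higher than 79.9% of the genes tested and Plxna3 than 25.9%. From the estimated depth and transcript lengths of another annotation, these levels rest on an estimated 2265 to 33022 reads per gene and library.

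**Figure D1:**
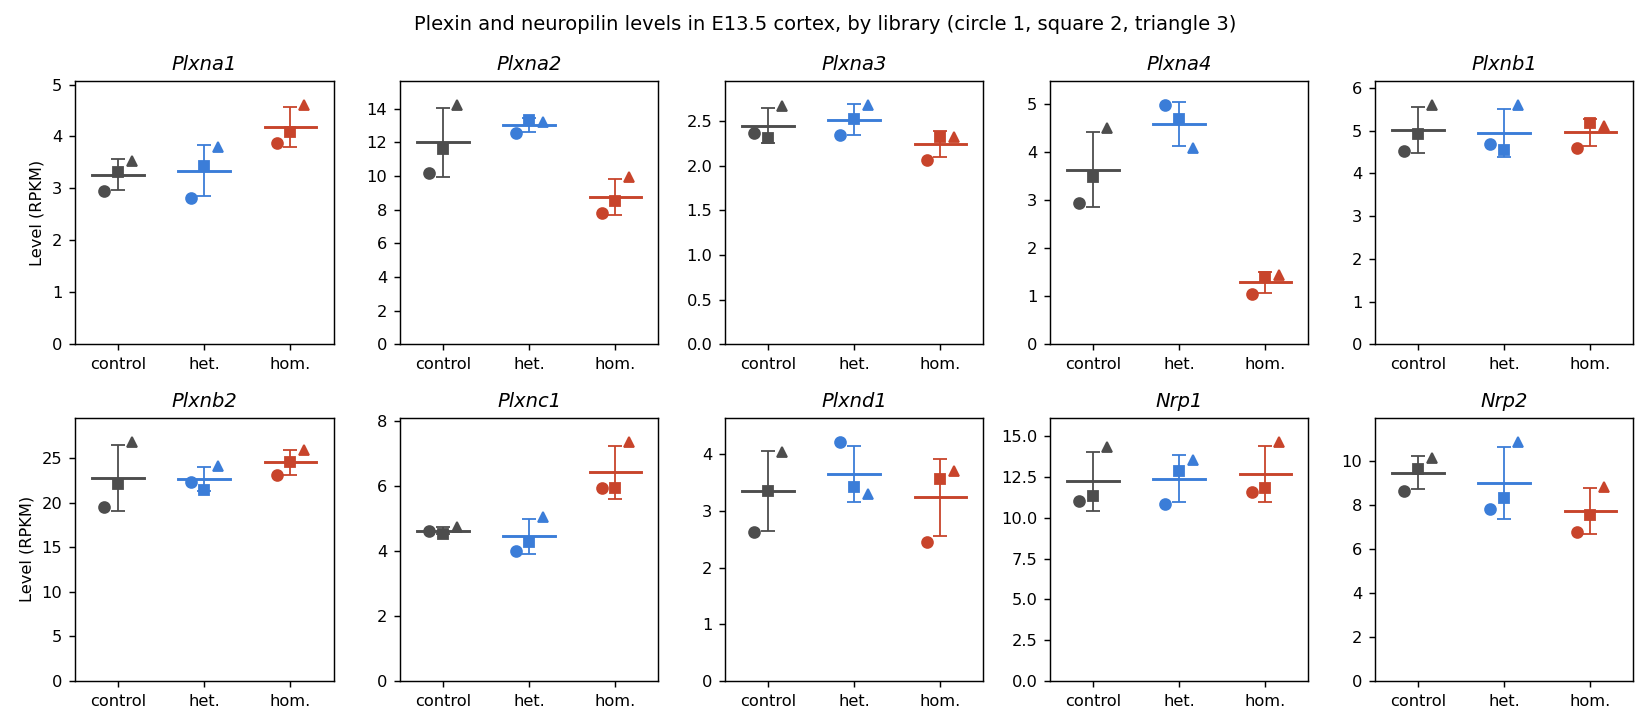
Level of each receptor gene in RPKM (vertical axes from 0) in the 9 libraries, by genotype; symbols are single libraries, horizontal lines group means and bars SD (n = 3). The homozygous libraries of Plxna4 and Plxna2 lie below all control libraries, and those of Plxnc1 and Plxna1 above them.

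The comparison of homozygous with control cortex asks what loss of both Sfpq copies does to these receptors. The family split: Plxna4 and Plxna2 fell, Plxnc1 and Plxna1 rose, and 6 genes did not pass. The 4 called genes are 40% of the members, beside 34.2% of all genes tested, and the 2 that fell and 2 that rose stand beside 19.9% and 14.4%. In the same 4 the homozygous and control libraries did not overlap, as was so for 46.1% of all genes (25.6% lower and 20.6% higher). These shares are near the background, so the count is not a result about the receptors as a family. Over all genes, 2445 fell and 1764 rose, a split that became 1975 and 2974 with medians set equal and 2186 and 2596 with quantile normalization, while the direction of the 4 called receptors held under both. The median log2 change of the 10 receptors was -0.03, and that of all genes tested -0.01.

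Plxna4, an A-type plexin that serves both neuropilin-bound semaphorins and the membrane-bound Sema6 ligands, showed the largest change of the 10. It was at 2.93, 3.48 and 4.48 RPKM in control, at 4.97, 4.68 and 4.08 RPKM in heterozygous and at 1.04, 1.39 and 1.43 RPKM in homozygous libraries. Every homozygous library lay below every control and heterozygous library. The homozygous mean of 1.29 ± 0.216 RPKM was 35.5% of the control mean (log2 change -1.20 ± 0.14 SE, 95% interval -1.50 to -0.90, limma adjusted p = 6.01e-05). Of the 12291 genes tested, 181 had a more negative change. The exact permutation p (two-sided, on RPKM) was 0.1, the lowest possible with 3 libraries in each group. By sex, the control females were at 2.93 and 3.48 RPKM and the homozygous female at 1.04 RPKM, and the control male was at 4.48 RPKM and the homozygous males at 1.39 and 1.43 RPKM, sets too small for a test. The call held in all 22 alternative settings, not all of which could change its estimate. An antisense transcript annotated inside the gene, Plxna4os1, was listed at 0.0102 to 0.0401 RPKM. Libraries were stranded per the labels, and whether strand was used in counting was not given in the sources used here.

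Plxna2, another A-type plexin and the most abundant one, is a receptor of Sema6a and of neuropilin-bound ligands. It was at 10.2, 11.6 and 14.2 RPKM in control, at 12.5, 13.3 and 13.2 RPKM in heterozygous and at 7.80, 8.53 and 9.91 RPKM in homozygous libraries. The homozygous libraries lay below all others, with a narrow margin from the lowest control library. The mean fell to 72.9% of control (log2 change -0.43 ± 0.11 SE, 95% interval -0.68 to -0.18, limma adjusted p = 0.0120). The call was lost without homozygous library 1 (limma adjusted p = 0.0510) and with no filter on low genes (limma adjusted p = 0.0693).

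Plxna1, which pairs with neuropilins and also takes up Sema6d, went the other way. It was at 2.95, 3.32 and 3.53 RPKM in control, at 2.81, 3.43 and 3.79 RPKM in heterozygous and at 3.87, 4.08 and 4.61 RPKM in homozygous libraries. All 3 homozygous libraries lay above the others, though the gap to the highest heterozygous library was small. The mean rose to 128% of control (log2 change 0.32 ± 0.11 SE, 95% interval 0.08 to 0.55, limma adjusted p = 0.0401). This was the least secure of the 4 calls. It did not hold once control library 1 (limma adjusted p = 0.126), control library 2 (0.0867), heterozygous library 2 (0.0557), homozygous library 2 (0.0690) or homozygous library 3 (0.137) was left out. It was also lost with sex in the model (limma adjusted p = 0.0772), with no filter (0.117) and with number 3 left out in all groups (0.0743).

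Plxna3, the X-linked A-type plexin that works with Nrp2, did not pass. It was at 2.37, 2.31 and 2.67 RPKM in control, 2.34, 2.52 and 2.68 RPKM in heterozygous and 2.07, 2.32 and 2.33 RPKM in homozygous libraries, with overlap between homozygous and control. The log2 difference from control was -0.11 (95% interval -0.29 to 0.07, limma adjusted p = 0.354), so a fall by more than 0.29 or a rise by more than 0.07 lies outside the interval.

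The opposite changes altered the make-up of the A-type group. Plxna4 made up 15.9%, 16.8% and 18.0% of the summed A-type RPKM in control libraries and 7.03%, 8.52% and 7.83% in homozygous libraries. Plxna1 made up 15.98%, 16.02% and 14.2% in control and 26.2%, 25.0% and 25.2% in homozygous cortex. Plxna2 stayed the leading gene in every library, at 52.2% to 57.1%. The 4 genes summed to 21.3 ± 3.28 RPKM in control libraries and to 16.5 ± 1.75 RPKM in homozygous ones (SD, n = 3), which was 37.3% ± 0.292 and 29.5% ± 0.635 of the RPKM of all 8 plexins. These shares are given as a description, since the genes were chosen with results known.

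**Figure D2:**
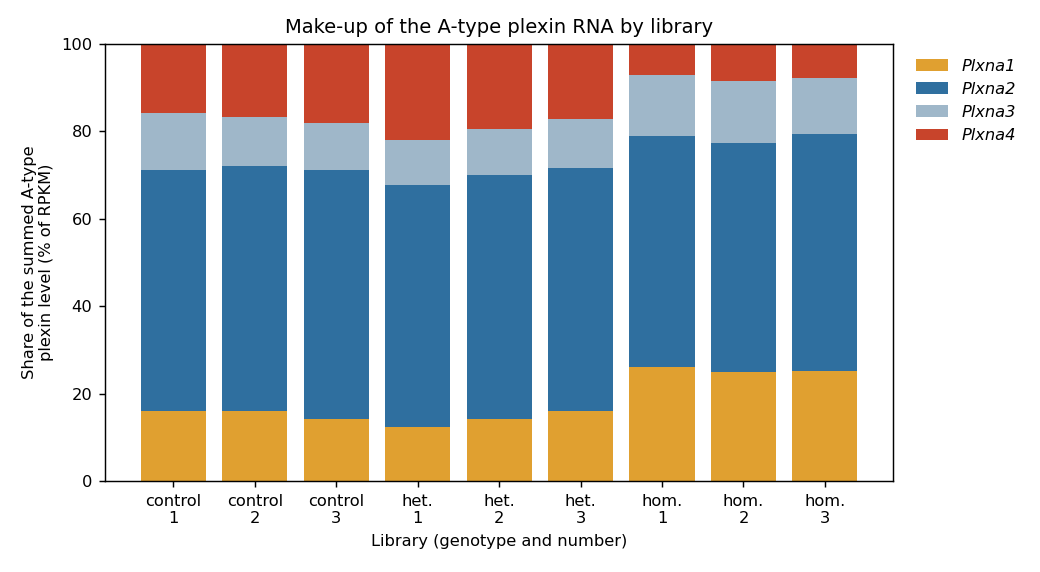
Share of the summed A-type plexin level (percent of RPKM, vertical axis) taken by each of the 4 genes in each of the 9 libraries (horizontal axis; het., heterozygous; hom., homozygous). Plxna4 takes 7.03% to 8.52% in the homozygous libraries, and Plxna1 25.0% to 26.2%.

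Among the remaining plexins, Plxnc1, the receptor of the membrane-anchored semaphorin Sema7a, rose. It was at 4.60, 4.53 and 4.75 RPKM in control, at 4.01, 4.28 and 5.05 RPKM in heterozygous and at 5.94, 5.94 and 7.37 RPKM in homozygous libraries. The homozygous libraries lay above all others. The mean rose to 139% of control (log2 change 0.43 ± 0.10 SE, 95% interval 0.21 to 0.64, limma adjusted p = 0.00620), and the call held in all 22 alternatives, with the smallest value, 0.33, without homozygous library 3. Some marker lists of other cell types differed in these libraries and others did not. Their counts stand beside 19.9% of all genes tested that fell and 14.4% that rose. Of 8 Cajal-Retzius markers (early-born neurons of the cortical surface), 7 were tested and 5 rose, and the sum over the list was 38.6 to 43.8 RPKM in control and 56.2 to 68.0 RPKM in homozygous libraries. The genes that rose were Calb2, Nhlh2, Barhl2, Lhx5 and Ebf2, while the defining markers Reln, with a control mean of 16.8 ± 1.88 and a homozygous mean of 14.9 ± 0.354 RPKM (limma adjusted p = 0.148), and Trp73, at 0.655 ± 0.0627 and 0.615 ± 0.103 RPKM (0.689), did not pass. Of 9 microglia markers 8 were tested and 4 rose, with sums of 14.6 to 16.5 and 19.4 to 26.5 RPKM. Of 7 markers of diencephalon and cortical hem 4 rose, with sums of 31.0 to 37.6 and 43.0 to 46.5 RPKM. Those that rose were Tcf7l2 (log2 change 0.57), Lhx9 (0.90), Otx2 (0.52) and Rspo3 (0.29). Rspo3, the most abundant of the list, rose from 17.7 ± 2.25 to 21.7 ± 0.909 RPKM. Wnt3a (log2 change -0.20), Lmx1a (-0.24) and Wnt8b (0.23) did not pass. Of 7 meningeal and 4 choroid plexus markers tested limma called 0, with 0 at an unadjusted p below 0.05, and of 6 erythroid markers 2 fell. None of the genes in these lists was at 0 in all libraries. The part of these cells in the rise of Plxnc1 and Plxna1 was not tested. In bulk tissue fewer or more cells of a type and less or more RNA per cell cannot be told apart.

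Plxnb2 was at 19.5, 22.1 and 26.9 RPKM in control, at 22.4, 21.4 and 24.1 RPKM in heterozygous and at 23.2, 24.6 and 26.0 RPKM in homozygous libraries (log2 change 0.12, 95% interval -0.10 to 0.33, limma adjusted p = 0.407). The homozygous libraries fell inside the control range. Without control library 3 the gene passed as higher (log2 change 0.24, limma adjusted p = 0.0376). Plxnb1, a receptor of Sema4d, was at 4.54, 4.93 and 5.59 RPKM in control, at 4.69, 4.55 and 5.61 RPKM in heterozygous and at 4.60, 5.18 and 5.10 RPKM in homozygous libraries (log2 change -0.01, 95% interval -0.22 to 0.20, limma adjusted p = 0.936). The 3 genotypes overlapped for this gene as well. Plxnd1, the receptor of Sema3e and best known from endothelial cells, was at 2.63, 3.36 and 4.05 RPKM in control, 4.22, 3.43 and 3.30 RPKM in heterozygous and 2.45, 3.56 and 3.70 RPKM in homozygous libraries (log2 change -0.04, 95% interval -0.39 to 0.31, limma adjusted p = 0.869). This was the widest interval of the 10 genes.

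The neuropilins differed from each other. Nrp1, which binds Sema3a and Vegfa, was at 11.03, 11.3 and 14.3 RPKM in control, at 10.8, 12.9 and 13.53 RPKM in heterozygous and at 11.6, 11.8 and 14.7 RPKM in homozygous libraries. The 3 groups overlapped over nearly their whole range (homozygous minus control 0.05, 95% interval -0.21 to 0.32, limma adjusted p = 0.772). Nrp2, which binds Sema3f and Vegfc, was at 8.64, 9.61 and 10.1 RPKM in control, at 7.81, 8.29 and 10.9 RPKM in heterozygous and at 6.76, 7.52 and 8.82 RPKM in homozygous libraries. Its homozygous libraries tended low, but 1 of them lay inside the control range, and the difference did not pass (log2 change -0.29 ± 0.12 SE, 95% interval -0.56 to -0.015, limma adjusted p = 0.0977). Nrp2 passed as lower without heterozygous library 3 (limma adjusted p = 0.0445), without homozygous library 3 (0.0470), with number 3 left out in all groups (0.0253) and with sex in the model (0.0428). The tables list 6 transcripts of Nrp2, with means of 8.38 to 8.71 RPKM over the 9 libraries, and 3 of Plxnb2, with means of 22.9 to 23.4 RPKM. These transcripts share most of their exons, so their values are not independent. Nrp1 made up 54.1% to 58.6% of the summed neuropilin RPKM in control, 55.5% to 60.8% in heterozygous and 61.1% to 63.2% in homozygous libraries.

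Both neuropilins and Plxnd1 are also made by blood vessels. Of 10 endothelial markers limma called 0 in homozygous against control cortex, with 0 of the 10 at an unadjusted p below 0.05. Their summed level was 67.3 to 82.8 RPKM in control, 68.8 to 73.7 RPKM in heterozygous and 70.5 to 89.6 RPKM in homozygous libraries, and none of the 10 was at 0 in all libraries. The neural lists moved in both directions, beside 19.9% of all genes tested that fell and 14.4% that rose. Among 11 excitatory neuron markers of the cortex 4 rose and 3 fell, with sums of 499.9 to 585 RPKM in control and 417 to 499 RPKM in homozygous libraries. Among 6 intermediate progenitor markers 3 fell and 0 rose, with sums of 128 to 163 and 81.1 to 85.3 RPKM. Of 10 radial glia markers 2 fell and 2 rose, with sums of 1934 to 2107 and 1840 to 1927 RPKM. Such sums mostly follow the most abundant genes. In the radial glia list Fabp7 fell from 995 to 736 RPKM and Vim rose from 565 to 701 RPKM, while Pax6, Sox2 and Nes did not pass. In the neuron list Tubb3 went from 364 to 318 RPKM and did not pass (limma adjusted p = 0.105). The part of the cells of these lists in the falls of Plxna4 and Plxna2 was not tested.

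The comparison of heterozygous with control cortex asks whether loss of 1 copy is enough. None of the 10 receptors was called, and limma called 0 of 12291 genes (0%), with 706 genes, or 5.74%, at an unadjusted p below 0.05. Log2 differences of the members ran from -0.08 for Nrp2 to 0.31 for Plxna4, and the groups overlapped in all 10, whereas 11.1% of all genes had no overlap (7.52% lower and 3.6% higher). Plxna4 was the only member whose 95% interval, 0.01 to 0.61, left out 0, but it missed the threshold (limma adjusted p = 0.857; exact permutation p = 0.2). With sex in the model that difference was 0.06 (limma adjusted p = 0.921). Of the other 9 intervals the widest, that of Plxnd1, ran from -0.23 to 0.47.

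Homozygous and heterozygous cortex differ by the second copy. In this comparison 3 of 10 members were called, or 30%, beside 32.8% of all genes tested (18.2% lower and 14.5% higher). Plxna4 fell by 1.51 on the log2 scale (95% interval -1.81 to -1.21, limma adjusted p = 1.10e-05), to 28.1% of the heterozygous mean of 4.58 ± 0.454 RPKM. Plxna2 fell by 0.55 (95% interval -0.80 to -0.31, limma adjusted p = 0.00303), to 67.2% of the heterozygous mean. Plxnc1 rose by 0.48 (95% interval 0.27 to 0.70, limma adjusted p = 0.00319). These 3 calls held in all 22 alternatives. Plxna1 was 0.29 higher (95% interval 0.06 to 0.53) and did not pass (limma adjusted p = 0.0567), although it passed without heterozygous library 3 (limma adjusted p = 0.0295), with quantile normalization (0.00858), with equal medians (0.00917) and with sex in the model (0.0312). Plxna3 was 0.14 lower and did not pass (limma adjusted p = 0.229). It was 1 of 5 members with no overlap, 3 of them lower and 2 higher, beside 46.6% of all genes tested (24.1% lower and 22.4% higher). Nrp2 was 0.20 lower (95% interval -0.48 to 0.07, limma adjusted p = 0.234). This comparison uses the same homozygous libraries as the one with control, so it does not repeat it independently.

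**Figure D3:**
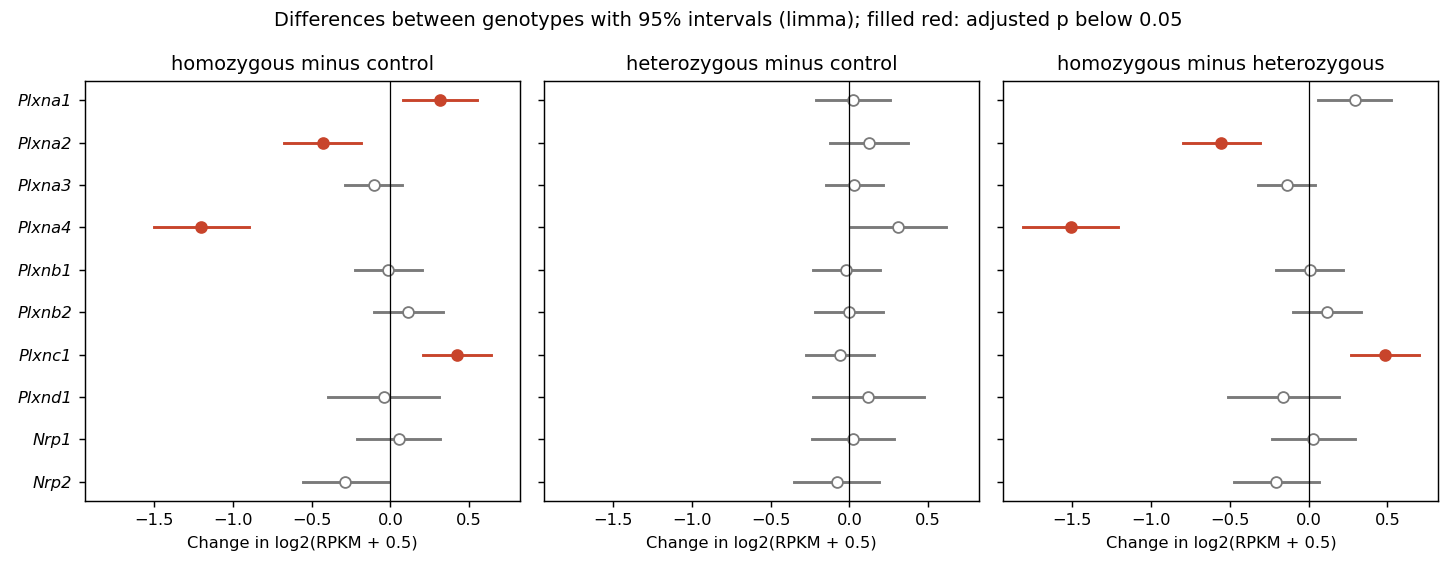
Differences in log2(RPKM + 0.5) (horizontal axes) of the 10 receptor genes in the 3 comparisons, with 95% intervals from limma; filled red points have an adjusted p below 0.05. Plxna4 lies at -1.20 against control and -1.51 against heterozygous cortex, and no member is called in heterozygous against control.

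Genomic span was not used to choose these genes and differs widely among them. Spans in RefSeq on GRCm38.p6 were 444 kb for Plxna4, 197 kb for Plxna2, 154 kb for Plxnc1, 147 kb for Nrp1 and 115 kb for Nrp2. The other 5 were shorter: 46.3 kb for Plxna1, 40.5 kb for Plxnd1, 26.5 kb for Plxnb2, 26.1 kb for Plxnb1 and 16.4 kb for Plxna3. Much of the difference lies in introns. Plxna4 and Plxna1 have 32 exons each, and their longest introns are 186 kb and 10.75 kb. Both genes that fell are the longest of the 10, but the third, Plxnc1, rose, and Nrp1 and Nrp2 did not pass. Over all genes tested, 31.1% of the 1070 genes of 100 to 200 kb were lower and 12.4% higher in homozygous cortex, and of the 698 genes of 200 kb and more 58.0% were lower and 7.59% higher. The 4 receptors of 100 to 200 kb thus gave 1 lower and 1 higher gene, in a class where most genes did not pass. Of the 5 shorter receptors 0 were lower and 1 higher, beside 14.7% lower and 15.1% higher under 30 kb and 19.1% lower and 14.7% higher from 30 to 100 kb. Across the 10 members, Spearman's rho between span and log2 change was -0.27, and Pearson's r with the logarithm of span was -0.55. Over the 12154 genes with a span these were -0.15 and -0.22. The correlations are across genes of the same libraries and are given as a description.

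**Figure D4:**
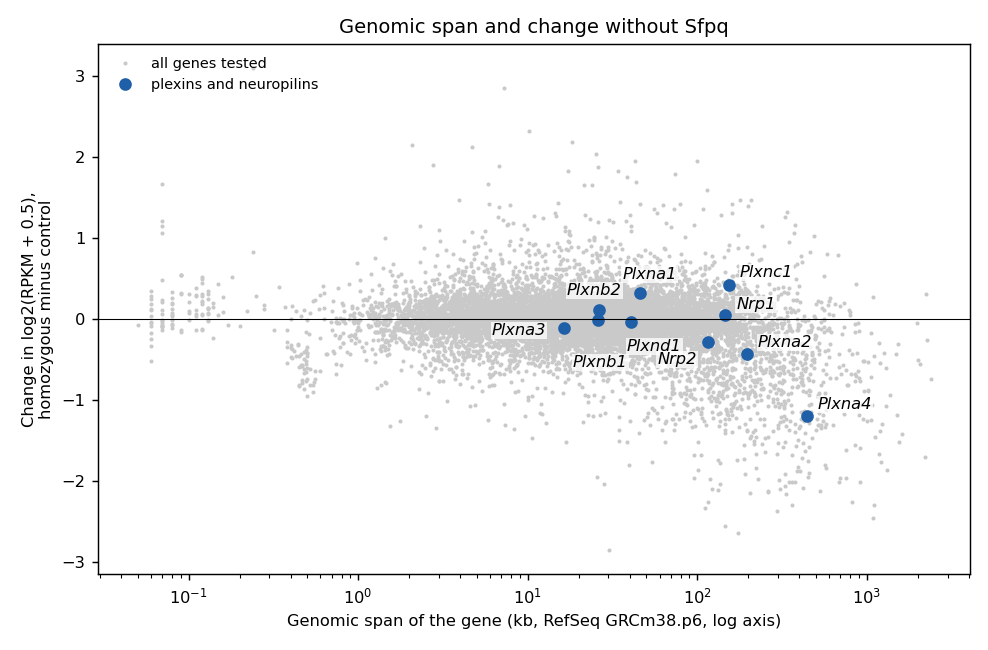
Genomic span (horizontal log axis, kb) against the change in log2(RPKM + 0.5) from control to homozygous cortex (vertical axis); grey points are all genes tested with a span, blue points the 10 receptors. Plxna4, at 444 kb, lies at -1.20, while Plxnc1, at 154 kb, lies at 0.43.

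The start regions of the called genes were set side by side, since 2 members move apart there: Plxna2, which fell, and Plxnc1, which rose, with Nrp2, which did not pass, for comparison. RefSeq windows of GRCm38.p6 matched 8 of the 10 genes, all but Plxna1 and Plxna4. The stretches end where the first annotated transcript of the gene begins, are written 5′ to 3′, and carry the GC box GGGCGG or its reverse complement CCGCCC in capitals.
Plxna2 chr1:194619579-194619790 (+ strand): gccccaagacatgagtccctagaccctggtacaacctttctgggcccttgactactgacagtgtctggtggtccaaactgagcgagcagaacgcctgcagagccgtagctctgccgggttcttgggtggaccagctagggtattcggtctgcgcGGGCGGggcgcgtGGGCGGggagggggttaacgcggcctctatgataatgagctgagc
Plxnc1 chr10:94945016-94945095 (- strand): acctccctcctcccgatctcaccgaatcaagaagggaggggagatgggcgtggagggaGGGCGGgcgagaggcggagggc
Nrp2 chr1:62703067-62703316 (+ strand): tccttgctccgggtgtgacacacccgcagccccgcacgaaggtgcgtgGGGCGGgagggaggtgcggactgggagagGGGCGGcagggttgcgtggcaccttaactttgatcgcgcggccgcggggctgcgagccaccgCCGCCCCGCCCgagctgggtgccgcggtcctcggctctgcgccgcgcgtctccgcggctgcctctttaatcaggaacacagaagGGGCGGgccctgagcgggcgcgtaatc
Over the full 250 bases before the start, the Plxna2 window held 2 GC boxes on either strand, the Plxnc1 window 4 and the Nrp2 window 5, counting overlapping matches. All 9 windows of the 8 genes held at least 1, beside 32.8% of all 32841 windows of that length. However, the windows of Nrp1, Plxna3, Plxnb1 and Plxnd1 and both of Plxnb2 lay wholly inside the annotated extent of the gene. Of the Plxnc1 window, 80 of the 250 bases lay outside the gene, with 1 of its 4 GC boxes. The counts and base shares given for the 9 windows are thus not those of sequence upstream of the genes alone. Neither TATAAA nor CCAAT was found on either strand in any of the 9, beside 12.4% and 33.9% of all windows. The 9 windows were rich in G and C, with a median of 68.0% and 18 CG dinucleotides, against 52.4% and 6 over all windows. The window of Plxna2 had 62.8% GC and 18 CG dinucleotides, and that of Plxnc1 68.8% and 22. A match is a string of letters and not a measured binding site.

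The genes that signal with these receptors were counted from lists. The counts stand beside 19.9% of all genes tested that fell and 14.4% that rose in homozygous against control cortex. Against heterozygous cortex these shares were 18.2% and 14.5%. The lists were not tested against these shares. Of 20 semaphorin genes 14 passed the filter, and in homozygous against control cortex 6 fell and 2 rose (median log2 change -0.17). Sema5b fell from a control level of 4.14 ± 0.329 to 0.581 ± 0.0432 RPKM (log2 change -2.10, limma adjusted p = 2.43e-08) and Sema5a, a transmembrane guidance signal like it, from 3.97 ± 0.319 to 0.662 ± 0.138 RPKM. Sema3c, a secreted neuropilin ligand, fell from 9.73 ± 1.58 to 5.72 ± 0.424 RPKM. Sema6a, the ligand of Plxna2 and Plxna4, rose from 1.37 ± 0.0275 to 2.54 ± 0.0694 RPKM (log2 change 0.70, limma adjusted p = 3.16e-05), while both receptors fell. Sema6d, a ligand of Plxna1, fell from 6.28 ± 1.18 to 4.09 ± 0.570 RPKM (log2 change -0.56, limma adjusted p = 0.00695). Sema7a, the ligand of Plxnc1, fell from 2.39 ± 0.223 to 1.81 ± 0.278 RPKM (log2 change -0.33, limma adjusted p = 0.0254), and Sema3a, a ligand of Nrp1, fell from 5.04 ± 0.539 to 3.39 ± 0.300 RPKM. Sema6d, Sema7a and Sema3a were singled out after their values were seen, so opposite directions of a ligand and its receptor are not a result. Not all pairs went apart: Plxna4, which also serves Sema6 ligands, fell as Sema6d did. The other semaphorin that rose was Sema4b (log2 change 0.33, limma adjusted p = 0.0139). Sema3f, a ligand of Nrp2, did not pass (log2 change 0.29, limma adjusted p = 0.0542). In heterozygous against control cortex limma called 0 of the 14, and in homozygous against heterozygous cortex 7 fell and 2 rose.

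Of 5 vascular growth factor genes that bind neuropilins or their partners 4 were tested, and only Pgf, placental growth factor, was called: it rose from 1.48 ± 0.0744 to 2.06 ± 0.105 RPKM (SD over 3 libraries). Against heterozygous cortex 2 of the 4 rose. Of 13 co-receptors 10 were tested, of which 3 fell and 1 rose (median -0.13). Robo1, a slit receptor that can join neuropilin complexes, fell from 6.51 ± 0.438 to 3.28 ± 0.268 RPKM. The adhesion molecule Nrcam, which accompanies Nrp2, fell from 12.6 ± 1.91 to 8.69 ± 0.773 RPKM, and the receptor-like kinase Ptk7 from 15.5 ± 1.69 to 11.5 ± 0.149 RPKM. L1cam, the partner of Nrp1, rose from 4.02 ± 0.335 to 5.25 ± 0.933 RPKM (limma adjusted p = 0.0356). In homozygous against heterozygous cortex 5 co-receptors fell and 1 rose.

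Of 31 cytoplasmic partners 29 were tested, and 7 rose and 7 fell (median -0.01). The small GTPase Rnd1, which binds plexin cytoplasmic domains, fell from 3.56 ± 0.435 in control to 1.08 ± 0.0958 RPKM (log2 change -1.36, limma adjusted p = 3.48e-06) and the kinase Fyn from 31.9 ± 3.86 to 16.6 ± 0.949 RPKM. Rnd1 spans 8.26 kb. Mical3, of the MICAL family of actin-oxidising plexin partners, rose from 1.64 ± 0.0311 to 4.27 ± 0.703 RPKM (log2 change 1.14, limma adjusted p = 1.26e-05). It spans 242 kb. Dpysl4, of the collapsin response mediators that act behind Nrp1, rose from 10.03 ± 0.274 to 16.8 ± 1.59 RPKM. That family was split: Dpysl3 also rose (log2 change 0.63), Dpysl5 (-0.41) and Dpysl2 (-0.13) fell, and Crmp1 (0.11) did not pass. In homozygous against heterozygous cortex 5 of the 29 rose and 5 fell, and in heterozygous against control limma called 0. Over the 12291 genes tested the heterozygous comparison had 706 at an unadjusted p below 0.05.

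**Figure D5:**
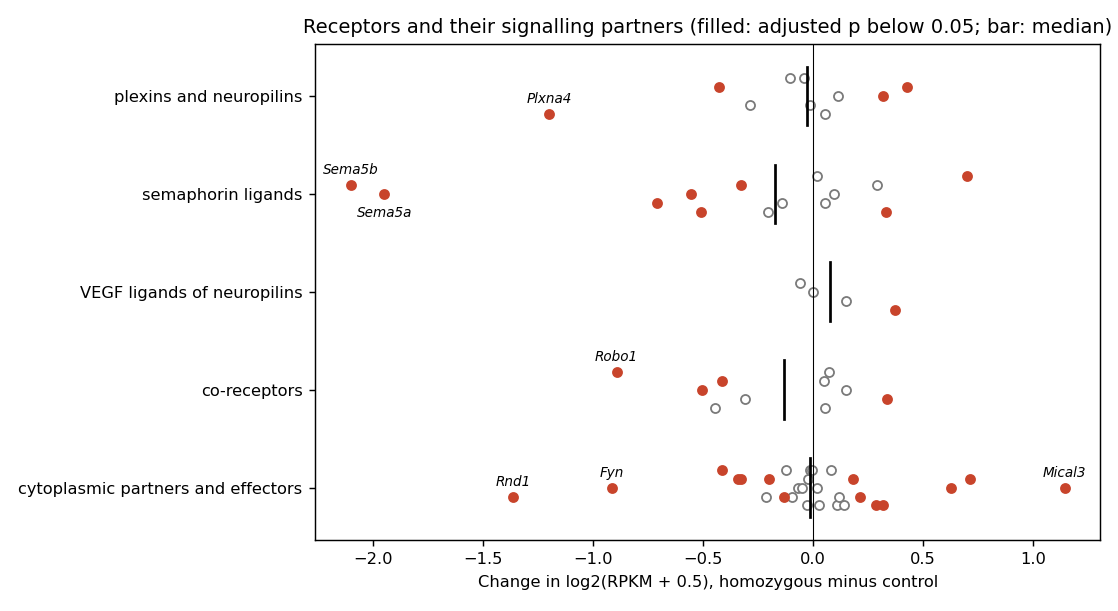
Changes in log2(RPKM + 0.5) from control to homozygous cortex (horizontal axis) for the receptors and 4 lists of their ligands and partners; each point is a gene that passed the filter, filled points have a limma adjusted p below 0.05 and black bars are list medians. The semaphorin list has a median of -0.17, and the cytoplasmic partners one of -0.01.

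The genes whose levels followed Plxna4 most closely over the 9 libraries were Id2, an inhibitor of basic helix-loop-helix factors (Pearson's r of log2 values 0.994), the potassium channel Kcnq3 (0.993), the formin Fmnl2 (0.992), the intermediate filament peripherin, Prph (0.991), and the protease Adamts3 (0.991). In homozygous against control cortex they changed by -0.65, -1.35, -0.63, -0.89 and -0.76 on the log2 scale. Kcnq3, Fmnl2 and Adamts3 span 300.3, 276.5 and 209.8 kb, whereas Id2 and Prph span 2.29 and 5.40 kb. Of 12290 genes compared, 1028 had an r above 0.9 with Plxna4. Libraries of 1 genotype share their group mean, so these coefficients describe the samples and carry no p.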

How the data were processed

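RNA-seq values of 9 embryonic cortices were used. The submitters' processing notes name TopHat 1.4.1, CASAVA 1.8.2 and the build mm9. Per the file headers, the authors deposited 1 RPKM value per RefSeq transcript and library. The program, annotation, strand use and treatment of shared reads were not given in the sources used here. Gene coordinates were left out, and reads of overlapping genes may be shared. Transcripts were named from a RefSeq table (30507) and GENCODE M21 (178), and 293 kept their identifier. Spans are those of GRCm38.p6 and covered 98.9% of genes tested.

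All 9 libraries were fitted in limma 3.58.1 (R 4.3.3, genotype only, mean-variance trend) on log2(RPKM + 0.5), for genes whose mean reached 0.5 RPKM, 1 transcript per gene, with Benjamini-Hochberg adjustment over all genes. Embryos are the replicates. Simulated data (12291 genes, 10 runs) were used to gauge the fit for homozygous against control cortex. In them limma found 75.0% of log2 changes of 0.5 and 96.5% of those of 1, and 4.65% of its calls were false. These shares describe the simulated data alone. They were not measured on the cortices, whose libraries also differed in their general level. The simulation shifted far fewer genes than the 34.2% called in homozygous against control cortex, so the shares there may differ. Depth was estimated from the steps between low values, of which 65.1% to 68.8% lay within 0.1 of a whole read. No 2 libraries held the same table.

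All 10 members are named. Of each list, the 4 called genes of lowest adjusted p between homozygous and control cortex are named, and for the member with the largest change the 5 genes most correlated with it. Members and lists were chosen with earlier results of these data known. Other GABAergic, pericyte, meningeal, choroid plexus and erythroid marker lists had 1, 1, 0, 0 and 0 genes higher in homozygous than in control cortex. They had 0, 0, 0, 0 and 2 lower, beside 14.4% higher and 19.9% lower of all genes tested. Alternatives changed the pseudocount, filter, transcript, scaling, model and libraries.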

Additional observations from a re-analysis of the deposited data

How the results depend on the processing

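Of 22 alternatives, the calls of Plxna4 and Plxnc1 against control and against heterozygous cortex, and of Plxna2 against heterozygous cortex, held in all. Not every alternative could move these estimates. Each of these genes has 1 listed transcript, so the choice of transcript left its values unchanged. Leaving out a heterozygous library did not alter the estimates against control, only their spread. Against control, the change of Plxna4 lay between -1.42 and -1.01 and that of Plxnc1 between 0.33 and 0.49 on the log2 scale. With no filter on low genes, 2 members were called in homozygous against control cortex in place of 4, since Plxna1 and Plxna2 no longer passed. In heterozygous against control cortex, 1 gene was called with no filter, 1 with only those groups in the fit, and 0 to 1 when single libraries were left out. Scaling moved the split of all genes: 2445 fell and 1764 rose in homozygous against control cortex, 1975 and 2974 with equal medians, and 2186 and 2596 with quantile normalization. Against heterozygous cortex these were 2243 and 1788, 1832 and 2921, and 2115 and 2449. Plxna1 passed there with both scalings (limma adjusted p = 0.00917 and 0.00858) and with sex in the model (0.0312).

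With the replicate number as a block, 5 members were called in homozygous against heterozygous cortex in place of 3, with Plxna1 (limma adjusted p = 0.00917) and Nrp2 (0.0427) added, and Nrp2 passed against control (0.0101). Deviations from the group means correlated at -0.04 to 0.40 between libraries of the same number and at -0.44 to 0.09 between those of different numbers. Between homozygous and control libraries of the same number the values were 0.404, 0.0685 and 0.319. The same-number values were uneven and the labels state no shared batch, so the numbers were not taken to pair the embryos. In each genotype, however, library 3 was the highest for most members (10 in control, 7 in heterozygous and 9 in homozygous). Library 1 was the lowest for most (8, 6 and 9). Whether Nrp2 passes, and whether Plxna1 passes against heterozygous cortex, depends on this choice. Whether libraries of a number share an effect was not tested further.

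Members that did not pass in the main fit changed sign as follows. Homozygous minus control became 0.049 for Plxnb1 and 0.020 for Plxnd1 with quantile normalization, 0.054 and 0.025 with equal medians, 0.042 for Plxnb1 with number 3 left out in all groups (an alternative chosen after seeing the data), and -0.034 for Nrp1 with sex in the model. Heterozygous minus control became 0.013 for Plxnb2 with quantile normalization and 0.0066 with equal medians. With sex in the model it became -0.075 for Plxna1, -0.074 for Plxna2, -0.067 for Plxna3, -0.17 for Plxnd1 and -0.15 for Nrp1, and with number 3 left out -0.00877 for Plxna1 and 0.075 for Plxnb2. Homozygous minus heterozygous became -0.011 for Nrp1 with number 3 left out. The cause was not tested.

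Leaving out single libraries gave ranges that crossed 0. In homozygous against control they were -0.077 to 0.061 for Plxnb1, -0.18 to 0.12 for Plxnd1 and -0.051 to 0.17 for Nrp1. In heterozygous against control they were -0.059 to 0.13 for Plxna1, -0.0080 to 0.084 for Plxna3, -0.10 to 0.054 for Plxnb1, -0.11 to 0.12 for Plxnb2, -0.14 to 0.0071 for Plxnc1, -0.020 to 0.25 for Plxnd1, -0.043 to 0.14 for Nrp1 and -0.22 to 0.0077 for Nrp2. In homozygous against heterozygous they were -0.045 to 0.091 for Plxnb1, -0.26 to 0.00016 for Plxnd1 and -0.074 to 0.094 for Nrp1. Depth per library is an estimate, so no counting interval is given.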
